A study of Mus musculus with 12 samples.

Results

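The 10 genes described here encode inflammatory cytokines and chemokines of myeloid cells that also belong to the secretory phenotype of senescent cells: the interleukins Il1a, Il1b, Il6 and Il18, the tumor necrosis factor gene Tnf, the CC chemokines Ccl2, Ccl3, Ccl4 and Ccl12, and the CXC chemokine Cxcl2. They were listed by name, matched by symbol to the Ensembl identifiers of the count table, and all 10 were found among its 47643 genes. The data are bulk 3' RNA sequencing of viable brain cells sorted from the brains of 5 male C57BL/6-background mice of the p16-3MR line, aged 113 weeks (mouse 1), 115 weeks (mouse 2) and 116 weeks (mice 3, 4 and 5). From each mouse 1 RFPneg and 1 RFPpos sample was made. All mice carried the p16-3MR transgene, in which the p16 promoter drives a red fluorescent protein joined to a luciferase and a viral thymidine kinase, so the populations differ in reporter fluorescence and not in genotype or treatment. The sort took viable nucleated cells without an antibody against a cell type, and the study's text calls the RFPneg cells low rather than negative for the reporter. The mice of both populations were the same 5 animals, all old and male, so no comparison with young or female animals was possible here.

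The comparison asks whether brain cells with high activity of the p16 reporter carried more or less cytokine and chemokine mRNA than the other cells of the same brains. Counts on genes ranged from 177287 to 415834 in the RFPneg samples and from 222560 to 289713 in the RFPpos samples. At these depths 1 count equals between 2.40 and 5.64 CPM (counts scaled to a library of 1000000) in RFPneg and between 3.45 and 4.49 CPM in RFPpos, so a gene at a few CPM is seen as single counts. Each transcript was read from its 3' end, so CPM was not divided by transcript length when levels of different genes are set side by side. Reads on no gene took 32.1% to 37.2% of reads in RFPneg and 38.4% to 48.6% in RFPpos, higher in RFPpos in 5 of 5 mice and without overlap. The part of this in the differences between the populations was not tested. Intervals and floors cover counting error only where they are named as such.

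Cytokines of the interleukin-1 family, TNF and IL-6 are made by microglia, macrophages and infiltrating myeloid cells and act on receptors of glia, endothelium and other immune cells. Pro-IL-1beta and pro-IL-18 are cut by caspase-1 in inflammasomes, while TNF is shed from the membrane by the protease ADAM17. The CC chemokines bind receptors such as CCR1 and CCR2 and draw in monocytes and T cells, and CXCL2 attracts neutrophils through CXCR2. Most of these genes are induced through NF-kB, and the mRNAs of several are kept short-lived by AU-rich elements in their 3' untranslated regions.

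The 4 CC chemokine genes share chromosome 11, in 2 pairs of near neighbors. In GENCODE M21 (GRCm38), Ccl3 spans chr11:83647844-83649355 on the minus strand and Ccl4 chr11:83662584-83664683 on the plus strand, with 13228 bases between them. Ccl2, at chr11:82035571-82037453, and Ccl12, at chr11:82101845-82103400, are both on the plus strand and 64391 bases apart. Il1a (chr2:129299610-129309972) and Il1b (chr2:129364570-129371139) are neighbors on the minus strand of chromosome 2, with 54597 bases between them. Il6 (chr5:30013114-30019981, plus strand) and Cxcl2 (chr5:90903871-90905938, plus strand) share chromosome 5 at a distance, and Tnf (chr17:35199381-35202007) is on the minus strand of chromosome 17. Il18 (chr9:50554827-50581840, plus strand) overlaps Bco2 and Tex12 on the other strand. Bco2 had 9 counts in RFPneg and 20 in RFPpos, and Tex12 had 0 in both. Whether the counting used strand is not given in the sources used here, so reads of Il18 and Bco2 could not be told apart with certainty.

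Promoters of 3 of the genes are shown because their counts carry much of the comparison (Ccl12 and Il18) or because the gene is the near relative of one that does (Ccl3, next to Ccl4). They are RefSeq windows of GRCm38.p6, 250 bases before to 50 bases after the RefSeq start site, printed 5' to 3' on the gene's strand. Capitals mark the TATA box letters TATAAA on either strand. The GENCODE M21 start of Il18 lies beyond its RefSeq window.

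Ccl12, chr11:82101595-82101894, plus strand: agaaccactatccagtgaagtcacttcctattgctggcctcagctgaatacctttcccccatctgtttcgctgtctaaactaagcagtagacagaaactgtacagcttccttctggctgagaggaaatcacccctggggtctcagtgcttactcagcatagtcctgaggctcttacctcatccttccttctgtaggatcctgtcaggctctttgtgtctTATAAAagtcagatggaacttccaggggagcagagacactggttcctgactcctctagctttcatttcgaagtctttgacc

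Il18, chr9:50554450-50554749, plus strand: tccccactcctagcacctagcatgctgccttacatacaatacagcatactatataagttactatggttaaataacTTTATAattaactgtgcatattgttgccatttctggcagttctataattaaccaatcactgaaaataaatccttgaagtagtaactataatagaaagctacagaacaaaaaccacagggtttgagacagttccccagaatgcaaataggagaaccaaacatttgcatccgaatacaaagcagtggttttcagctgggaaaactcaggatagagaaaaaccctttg

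Ccl3, chr11:83649329-83649628, minus strand: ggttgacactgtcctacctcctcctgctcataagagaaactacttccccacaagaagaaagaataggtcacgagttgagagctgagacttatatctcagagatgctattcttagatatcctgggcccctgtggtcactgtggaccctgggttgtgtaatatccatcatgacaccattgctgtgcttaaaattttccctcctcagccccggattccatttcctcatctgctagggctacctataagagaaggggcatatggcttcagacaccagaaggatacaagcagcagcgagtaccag

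The table held a promoter for 8 of the 10 members, with no entry for Ccl2 or Ccl4. In Ccl12 the TATA box began 31 bases before the start site, and in Il18 a match on the other strand began 175 bases before it, while Ccl3 had none. TATAAA on either strand was present in 5 of the 8 promoters and in 13.6% of 32851 promoters of that length. The AP-1 letters TGANTCA were in 2 of the 8 (Il1a and Il6) and in 7.81% of all promoters. The NF-kB consensus motif was in 2 of the 8 (Il6 and Cxcl2) and in 8.46% of all promoters. The windows of Ccl12, Il18 and Ccl3 held neither of these last motifs, which says only that the letters are not in these 300 bases.

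The 3' ends were compared because these reads come from them. All 10 members had at least 1 ATTTA, the core of an AU-rich element, in their longest annotated 3' untranslated region. Of genes with a region of similar length, between 20.3% (at the length of Ccl12) and 87.3% (at that of Il6) had at least 1 too. Tnf had 8 in 764 bases, a number reached by 0.264% of 2656 genes with a region 0.8 to 1.25 times as long, and Ccl12 had 5 in 167 bases, reached by 0.436% of 1377 genes. Ccl3 had 5 in 409 bases and Il1b 4 in 459 bases, reached by 1.1% and 3.51% of genes of similar length, and Il6 had 10 and Cxcl2 11, reached by 2.53% and 0.80%. The other 4 were nearer the rest, with the number in Il18 (1), Il1a (3), Ccl2 (1) and Ccl4 (2) reached by 39.3%, 35.7%, 35.2% and 12.8%. The longer form TTATTTATT was found 5 times in Tnf and 4 times in Cxcl2, and in none of the other 8, against 4.07% and 8.38% of genes of their lengths with at least 1. Windows of 30 bases with the most ATTTA, in capitals, are shown for these 2 genes, counted from the first base of the untranslated region.

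Tnf, bases 437 to 466: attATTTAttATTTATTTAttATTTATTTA

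Cxcl2, bases 883 to 912: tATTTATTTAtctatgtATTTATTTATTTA

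Near-identical copies can share reads. The last 400 bases of the Ccl3 and Ccl4 transcripts were 52.6% identical, with no shared run longer than 9 bases, and those of Ccl2 and Ccl12 were 52.9% identical with no run longer than 8.

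The 10 genes were a small part of either population's RNA, and their summed level was alike. They held 293 of 1337375 counts in RFPneg and 269 of 1228605 in RFPpos. The share was 0.0222% ± 0.00511 (SD, n = 5) in RFPneg and 0.0216% ± 0.00634 in RFPpos, and was higher in RFPpos in 2 of 5 mice. Ccl12, Ccl4 and Il18 gave 68.3% of the members' counts in RFPneg and 67.7% in RFPpos. The mean log2 ratio of the share within a mouse was -0.06 ± 0.47 (SD, n = 5), described with no test.

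**Figure D1:**
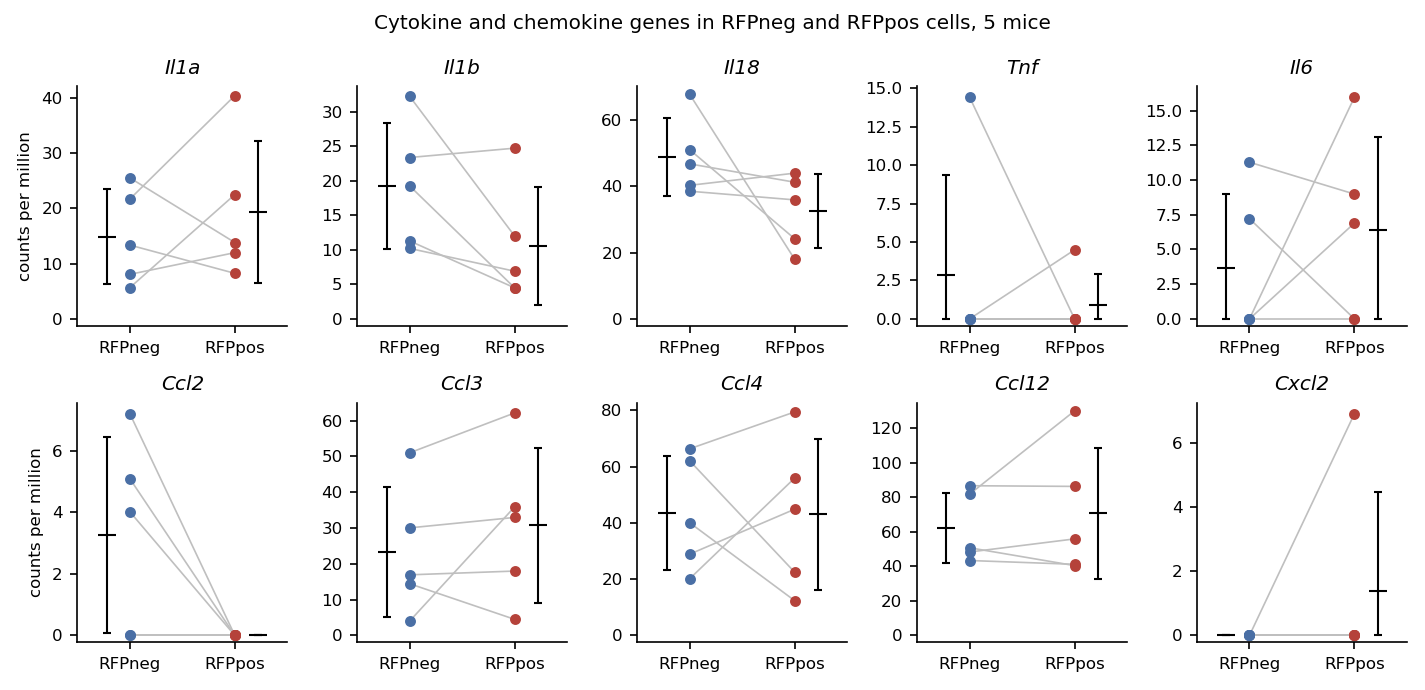
CPM of the 10 genes in the RFPneg (blue) and RFPpos (red) sample of each of 5 mice, with a gray line joining the samples of a mouse; bars are the mean and SD of 5 samples and end at 0 where the SD would reach below it. The populations overlap for every gene, and Tnf, Ccl2 and Cxcl2 are at 0 in most samples.

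No member was called between RFPpos and RFPneg. With edgeR's quasi-likelihood test, the mouse as a block and Benjamini-Hochberg adjustment over all genes tested, 427 of 4210 expressed genes were called higher in RFPpos at an adjusted p under 0.05 (10.1%) and 489 were called lower (11.6%). Of the members, 3 passed the expression filter (Ccl4, Ccl12 and Il18). Another 4 members (Il1a, Il1b, Il6 and Ccl3) were taken from a second fit to the 12270 genes with at least 10 counts, which called 524 genes higher (4.27%) and 919 lower (7.49%). Tnf, Ccl2 and Cxcl2 had fewer than 10 counts and were not tested. Of the 7 members tested, 0 were called in either direction, and 0 had an unadjusted p under 0.05. The edgeR likelihood ratio test and limma, run as alternatives, also called 0 of the 7, and DESeq2 called 0 of the 6 for which it gave an adjusted p, all but Il6. The smallest adjusted p of the 7 was 0.397. Their log2 fold changes had a median of 0.13, against -0.03 over the 4210 expressed genes and -0.15 over the 12270, and 4 of the 7 were above 0. In these bulk samples, fewer cells that express a gene and less RNA of it per cell cannot be told apart.

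Ccl12 (ENSMUSG00000035352), a mouse CC chemokine that acts on CCR2 and is related to Ccl2, had the highest mean level of the 10 in both populations. Its counts in mice 1 to 5 were 9, 17, 34, 12 and 13 in RFPneg and 9, 25, 29, 14 and 10 in RFPpos. The levels were 62.2 ± 20.4 CPM (SD, n = 5) in RFPneg and 70.8 ± 38.0 CPM in RFPpos. Mouse 3 gave the highest RFPpos level, 130 CPM, mice 2 and 3 the highest RFPneg levels, and the populations overlapped. The log2 fold change was 0.13 ± 0.31 (SE), with a 95% interval of -0.53 to 0.79, and RFPpos was higher in 2 of 5 mice (edgeR, adjusted p = 0.827).

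Ccl4, a chemoattractant of monocytes and T cells, was at 43.5 ± 20.2 CPM in RFPneg and 43.0 ± 26.7 CPM in RFPpos (SD, n = 5). The counts were 11, 13, 12, 5 and 12 in RFPneg and 5, 23, 10, 14 and 3 in RFPpos. The samples of mouse 2 were the highest of both populations, and the RFPpos samples of mice 1 and 5 were the lowest of theirs. The log2 fold change was -0.05 ± 0.46 (95% interval -1.01 to 0.91), and RFPpos was higher in 3 of 5 mice (edgeR, adjusted p = 0.963). The sign of this value near 0 turned without the mouse block, with limma, with no filter and among the fits that left out a mouse (-0.39 to 0.26). Its neighbor Ccl3, a ligand of CCR1, had 3, 10, 6, 1 and 9 counts in RFPneg and 4, 18, 1, 9 and 8 in RFPpos. Ccl3 reached 23.3 ± 18 CPM in RFPneg and 30.7 ± 21.6 CPM in RFPpos, with mouse 2 again the highest in both. RFPpos was above RFPneg in mice 1, 2, 4 and 5, and the log2 fold change of 0.46 ± 0.58 (95% interval -0.68 to 1.60) was not called (edgeR, adjusted p = 0.752, higher in 4 of 5 mice).

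Il18, the interleukin-1 family cytokine that induces interferon gamma, had a lower level in RFPpos in 4 of 5 mice. The counts were 12, 10, 16, 10 and 14 in RFPneg and 4, 7, 8, 11 and 10 in RFPpos, or 48.8 ± 11.7 CPM and 32.6 ± 11.2 CPM (SD, n = 5). The RFPpos samples of mice 1, 2 and 3 lay below every RFPneg sample, and those of mice 4 and 5 lay within the RFPneg range. The log2 fold change was -0.56 ± 0.42, with a 95% interval of -1.45 to 0.33, and was not called (edgeR, adjusted p = 0.397).

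Il1b, the cytokine that inflammasomes release, was counted 2, 2, 8, 8 and 7 times in RFPneg and 1, 2, 1, 3 and 6 times in RFPpos. The level was 19.3 ± 9.08 CPM in RFPneg and 10.5 ± 8.51 CPM in RFPpos (SD, n = 5), lower in RFPpos in 4 of 5 mice. The RFPpos samples of mice 1, 2 and 3 lay below every RFPneg sample, and that of mouse 5 lay above 4 of the 5 RFPneg samples. The interval of its log2 fold change of -0.86 ± 0.80 ran from -2.42 to 0.70 (edgeR, adjusted p = 0.623). Il1a, which is active without inflammasome cleavage, was counted 1, 5, 9, 2 and 4 times in RFPneg and 5, 4, 9, 3 and 2 times in RFPpos. Its level was 14.8 ± 8.56 CPM in RFPneg and 19.4 ± 12.8 CPM in RFPpos, and RFPpos sample 3 was the highest. Its log2 fold change was 0.38 ± 0.74 (95% interval -1.06 to 1.83; edgeR, adjusted p = 0.851, higher in 3 of 5 mice). The 2 interleukin-1 genes thus had fold changes of opposite sign, and neither interval excluded 0.

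Il6, a cytokine of the senescence secretory phenotype, had 2, 0, 3, 0 and 0 counts in RFPneg and 2, 2, 0, 4 and 0 in RFPpos. Its samples were at 0 in 3 of 5 RFPneg and 2 of 5 RFPpos samples, and its log2 fold change of 0.78 ± 1.46 had an interval of -2.08 to 3.64 (edgeR, adjusted p = 0.848, higher in 2 mice and lower in 2). Without mouse 3 it was 1.81, not called. Tnf had 0, 0, 6, 0 and 0 counts in RFPneg and 1, 0, 0, 0 and 0 in RFPpos. All 6 RFPneg counts came from mouse 3, and the ratio of the pooled levels, RFPneg to RFPpos, was 5.51 with an exact counting interval of 0.669 to 254. Ccl2, which draws CCR2-positive monocytes, had 0, 1, 3, 1 and 0 counts in RFPneg and 0 in all 5 RFPpos samples. Of its 5 counts 3 came from mouse 3, and the exact counting interval of the pooled ratio, RFPneg to RFPpos, began at 0.842, so that a difference was not detectable at this depth. Cxcl2 had 2 counts, both in RFPpos sample 2, and no fold is given, because both populations lay under the floor of 3 counts. The floor allows up to 2.24 CPM in RFPneg and 2.44 CPM in RFPpos. RFPneg sample 3, which held the most Tnf and Ccl2 counts, was also the deepest library, with 415834 counts on genes.

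In RFPneg, the order of mean levels was Ccl12, Il18, Ccl4, Ccl3, Il1b, Il1a, Il6, Ccl2, Tnf and Cxcl2. In RFPpos, it was Ccl12, Ccl4, Il18, Ccl3, Il1a, Il1b, Il6, Cxcl2, Tnf and Ccl2. Of the 9 neighboring pairs in each order, the gap between the means was larger than the larger SD of the pair in 1 in RFPneg, Il1a and Il6, and in 0 in RFPpos. Places next to each other are thus not set apart by the spread between mice, with that exception. Of the 18571 genes with a count, 86.1% had a lower mean level than Ccl12 and 78.6% a lower one than Ccl4, against 25.3% for Tnf and 12.9% for Cxcl2.

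The genes with the most similar profile over the 10 samples were sought by the smallest root mean square difference of mean-centred log2 CPM (prior count 2) among 4207 expressed genes. For Ccl12 they were Mid1ip1 (0.217), Abhd6 (0.239) and Commd3 (0.264), for Ccl4 Pdgfa (0.301), Tm2d2 (0.370) and Got1 (0.372), and for Il18 Atp6v1a (0.213), Ndrg2 (0.214) and Selenok (0.226). The SD of log2 CPM of the members themselves was 0.45, 0.63 and 0.40, in the same order.

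All 20 genes of the microglia core list were called higher in RFPpos with scaling to all genes, with a median log2 fold change of 1.04, while 0 of the 7 tested members were. Over all expressed genes, edgeR called 10.1% higher. DESeq2 called 18 of the 20 higher. Scaled to their own sum, 1 of the 20 was called higher. Their summed share was 1.73% ± 0.378 (SD, n = 5) of counts in RFPneg and 3.41% ± 0.378 in RFPpos, higher in 5 of 5 mice. Both populations thus held microglia RNA. Cdkn2a, the gene of p16, was added after its values were seen, as a check of the sort on the p16 promoter. It had 2, 0, 0, 2 and 4 counts in RFPneg and 0 in all 5 RFPpos samples. That is fewer than the 10 counts of the low-count fit, and no test of this gene is given. These 8 counts run the opposite way to the sort for high activity of the p16 promoter. They are too few to judge the sort or the sample labels, which were not tested here. The p16 and p19Arf transcripts of Cdkn2a were not told apart. The study's own measure of the p16 transcript in the sorted cells runs the way of the labels and was not analysed here.

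Relative to the microglia core counts, 4 of the 7 tested members were called lower in RFPpos. Il18, which overlapped in CPM, was at 30.6, 35.5, 24.6, 29.2 and 22.8 counts per 10000 core counts in RFPneg 1 to 5. In RFPpos 1 to 5 it was at 4.56, 7.48, 10.1, 12.9 and 14.1, without overlap. The means were 28.5 ± 5.07 and 9.82 ± 3.90 (SD, n = 5), and Ccl12 was at 38.3 ± 17.5 and 20.8 ± 10.7. With library sizes set to the core counts, edgeR gave log2 fold changes of -0.88 for Ccl12 (adjusted p = 0.0271), -1.06 for Ccl4 (0.0430), -1.54 for Il18 (0.00511) and, in the fit of low-count genes, -1.87 for Il1b (0.0429), all called lower. Ccl3, Il1a and Il6 were at -0.59, -0.68 and -0.23 and not called. This scaling moved the median of the 4210 expressed genes from -0.03 to -1.02, and called 15 of them higher and 2778 lower (66.0%), where scaling to all genes gave 427 and 489. In the fit of 12270 genes it called 5177 lower (42.2%). That fit's median moved from -0.15 to -1.19. The members called lower were thus 3 of 3 in the one fit and 1 of 4 in the other, where 66.0% and 42.2% of all genes were. Ccl12 and Ccl4 lay near the median of their fit, and Il18 and Il1b lay below the median of theirs. The members' summed counts relative to the core had a mean log2 ratio of -1.06 ± 0.32 (SD, n = 5), below 0 in 5 of 5 mice. With scaling to all genes and each mouse left out in turn, 0 members were called.

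**Figure D2:**
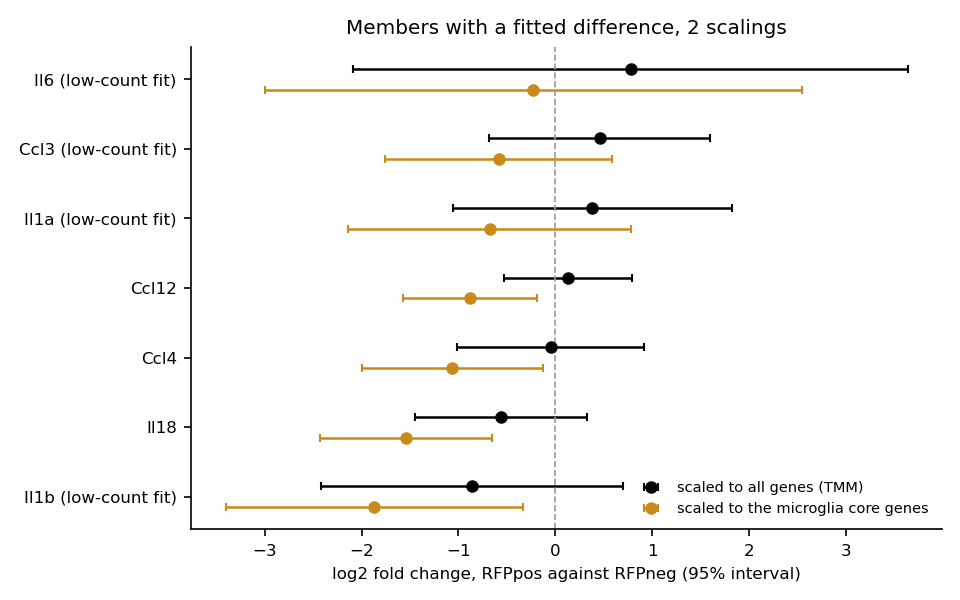
Log2 fold change of RFPpos against RFPneg with its 95% interval for the 7 tested members, from edgeR fits scaled to all genes (black) or to the microglia core counts (orange). Every black interval crosses 0, and the orange points lie lower, as does the median of all expressed genes, -1.02.

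Both IL-6 receptor genes and 1 of the 2 TNF receptor genes were higher in RFPpos with scaling to all genes, and Ccr2 was lower with either scaling. Of 19 receptor and decoy genes, 6 passed the expression filter, of which 4 were called higher and 1 lower (median log2 fold change 0.86), beside 7 tested in the low-count fit with 0 called. Over all genes tested, 10.1% were called higher and 11.6% lower in the expressed fit, and 4.27% and 7.49% in the low-count fit. Il6ra, the IL-6 binding subunit, was at 305 ± 86.0 CPM in RFPneg and 780 ± 297 CPM in RFPpos, and the populations did not overlap. Its log2 fold change was 1.33 ± 0.19 (SE), higher in 5 of 5 mice (edgeR, adjusted p = 5.51e-05). Il6st, the signaling subunit gp130, was at 0.90 ± 0.19 (adjusted p = 0.00210), higher in 5 of 5 mice. Tnfrsf1a, the main TNF receptor, was also called higher and was chosen after its values were seen, at 0.83 ± 0.22 (adjusted p = 0.00866), higher in 5 of 5 mice. Tnfrsf1b, the other TNF receptor gene, was not called (log2 fold change 0.61, adjusted p = 0.0761, higher in 5 of 5 mice). Ccr2, the receptor of Ccl2 and Ccl12 on monocytes, fell by 3.22 ± 0.46 (adjusted p = 5.10e-05), from 84.8 ± 18.4 CPM to 9.08 ± 5.71 CPM, in 5 of 5 mice. Relative to the microglia core, Il6ra (0.33) was not called, Il6st (-0.10) and Tnfrsf1a (-0.15) changed sign, and Ccr2 was called lower (-4.22). In the low-count fit with this scaling, 4 more were called lower, Il1r1, Il1rap, Il18r1 and Ackr1, chosen after their values were seen, so that 5 of the 13 tested receptor and decoy genes were. Of all genes, 66.0% in the expressed fit and 42.2% in the low-count fit were called lower with it. Il1r2, Cxcr1 and Ackr2 had 0 counts in both populations, and Cxcr2 had 9 counts in RFPneg and 0 in RFPpos.

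Among genes that process the ligands, 5 of 13 genes passed the filter and 2 were called higher. In the low-count fit, 7 more were tested and 0 were called. The shares of all genes called higher were 10.1% and 4.27% in these fits. With scaling to all genes, none of the 5 was called lower by edgeR, DESeq2 or limma, and 0 were lower at an unadjusted p under 0.05. Adam17, which sheds TNF, rose by 0.68 ± 0.19 (adjusted p = 0.0149), and Pycard, the inflammasome adaptor ASC, rose by 0.67 ± 0.23 (adjusted p = 0.0431), each higher in 5 of 5 mice. Relative to the microglia core, both were at -0.32 and not called, while Aim2 (-0.72) and Txnip (-0.64) were called lower, as were 66.0% of all expressed genes. Adam17 was also not called with DESeq2 (adjusted p = 0.0838) or without mouse 3 (0.0723), and Pycard was not called with DESeq2 (0.181), with median of ratios scaling (0.0515), with no filter (0.0634) or without mouse 1, 2, 4 or 5 (0.0641 to 0.143).

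NF-kB subunits and inhibitors gave 1 gene called higher and 1 lower of the 6 expressed among 17. Over all expressed genes, 10.1% were called higher and 11.6% lower, so single calls do not set this list apart. Rel, an NF-kB subunit, was at 59.1 ± 15.4 CPM in RFPneg and 107 ± 32.0 CPM in RFPpos, higher in 5 of 5 mice. Its log2 fold change was 0.82 ± 0.29 (adjusted p = 0.0480), a call lost with each mouse left out in turn (0.0612 to 0.195), with DESeq2 (0.168), with median of ratios scaling (0.0546) and with no filter (0.0825). Relative to the microglia core Rel was at -0.17. Nfkbia, which encodes the inhibitor IkBalpha and is itself an NF-kB target, was at 721 ± 294 CPM in RFPneg and 420 ± 117 CPM in RFPpos, lower in 4 of 5 mice. Its log2 fold change was -0.75 ± 0.23 (adjusted p = 0.0231), a call lost without mouse 2, 3, 4 or 5 (0.0552 to 0.114). Of 18 receptor adaptors and kinases, 8 were expressed, 0 were called by edgeR, DESeq2 or limma, and 1 was higher at an unadjusted p under 0.05. Jak1, a kinase of cytokine receptors and the most abundant of them, was at 220 ± 39.0 CPM in RFPneg and 279 ± 42.1 CPM in RFPpos. Of 10 genes of cytokine mRNA decay, 7 were expressed and 0 were called by these tools, with 0 at an unadjusted p under 0.05 in edgeR. Zfp36l1, which binds AU-rich elements like those of the 3' ends shown, was the most abundant, at 360 ± 103 CPM and 270 ± 61.0 CPM. Relative to the microglia core, 4 expressed genes of each of these lists and 3 of the NF-kB list were called lower. With the low-count fit, these were 8 of the adaptors and kinases, 4 of the decay genes and 4 of the NF-kB list. The shares of all genes called lower were 66.0% in the expressed fit and 42.2% in the low-count fit.

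Cytokines and chemokines outside the 10 included genes with large differences. Among 46 of them, 33 had a count, 10 were expressed, 1 was called higher and 3 lower, and 1 more was lower in the low-count fit. Over all genes, 10.1% of those expressed were called higher and 11.6% lower, and 7.49% were lower in the low-count fit. Il16, a leukocyte attractant, rose from 38.9 ± 20.7 CPM to 84.5 ± 34.4 CPM in 5 of 5 mice, a log2 fold change of 1.16 ± 0.35 (adjusted p = 0.0245). It was not called with DESeq2 (0.0634), without mouse 1, 2 or 3 (0.0638 to 0.0913) or relative to the microglia core, where its log2 fold change was 0.20. Cxcl12, the CXCR4 ligand of vessels and stroma, fell by 5.61 ± 0.32 (adjusted p = 9.49e-10), from 730 ± 413 CPM to 15.6 ± 14.7 CPM, in 5 of 5 mice. Ccl5, made by T cells and NK cells, fell by 4.91 ± 0.51 (adjusted p = 1.14e-06), and Il33, the alarmin of glia and endothelium, by 2.69 ± 0.45 (adjusted p = 0.000243), each in 5 of 5 mice. Without mouse 4 the log2 fold change of Ccl5 was -6.49, and without mouse 5 that of Il33 was -3.43, both called. The gene of the low-count fit was Tnfsf10, or TRAIL, chosen after its values were seen, with 47 counts in RFPneg and 4 in RFPpos. Of the immediate early genes, which mark acute activation during dissociation, 8 of 19 were expressed, 0 were called higher (0 at an unadjusted p under 0.05, and 0 by DESeq2 or limma) and 2 were called lower. Relative to the microglia core, all 8 were called lower, and 12 of 16 with the low-count fit, beside 11 of the 23 tested cytokines and chemokines outside the 10. With that scaling, 66.0% of all expressed genes and 42.2% of the genes in the low-count fit were called lower. Klf4 fell by 5.33 ± 0.48 (adjusted p = 1.71e-07) and Klf2 by 3.56 ± 0.38 (adjusted p = 1.34e-06), each in 5 of 5 mice, and both are also known in endothelium. Dusp1, a phosphatase gene chosen after its values were seen, was called lower in the low-count fit (log2 fold change -2.42 ± 0.78, adjusted p = 0.0204, lower in 5 of 5 mice). Without mouse 4 Klf4 was at -6.03. Dusp1 was at -3.22 without mouse 5, and was not called with DESeq2 (0.0787) or without mouse 2, 3 or 4 (0.101 to 0.171).

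**Figure D3:**
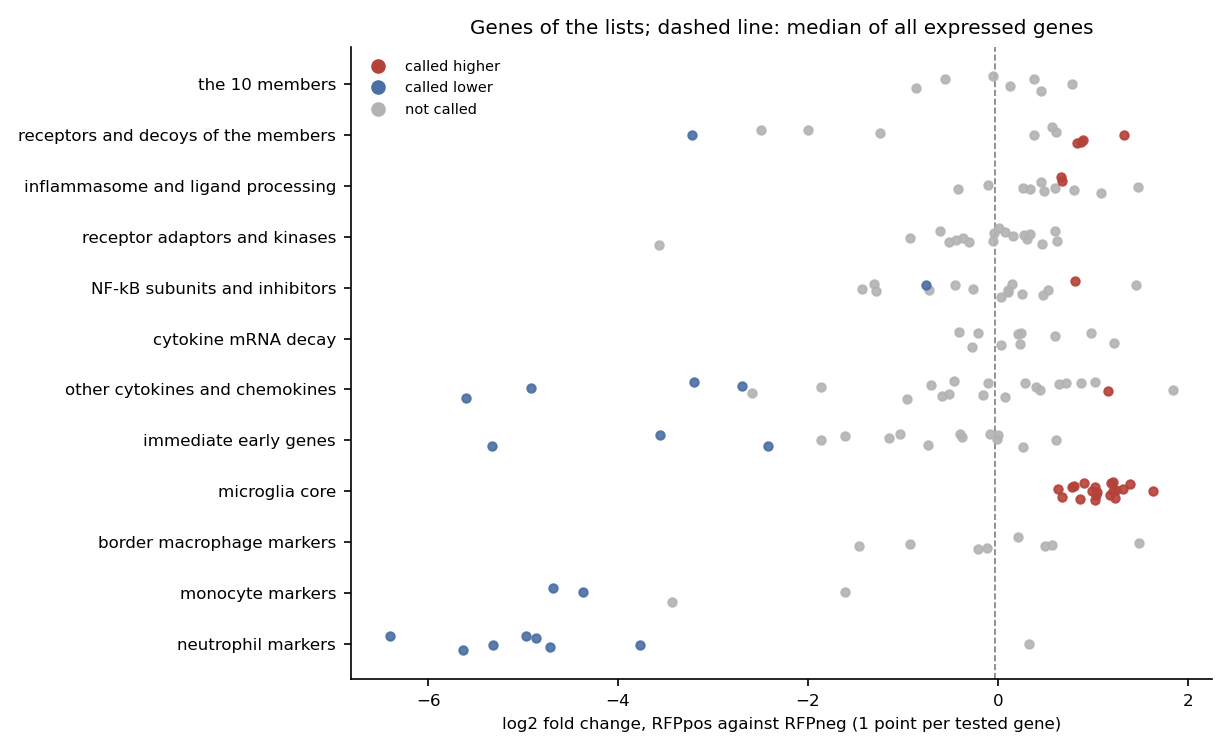
Log2 fold change of RFPpos against RFPneg for 152 tested genes of 12 lists, 1 point per gene; red and blue points are genes called higher or lower, gray points are not called, and 10 tested genes with a population at 0 are left out. The 7 tested cytokines and chemokines are gray, the 20 microglia core genes are red and most neutrophil markers are blue.

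Neutrophil, monocyte, lymphocyte, endothelial, mural and oligodendrocyte markers took a smaller share of counts in RFPpos than in RFPneg in 5 of 5 mice, while astrocyte and border macrophage markers did not. Neutrophil markers, which matter here because neutrophils make Il1b, Tnf and Cxcl2, took 0.401% ± 0.203 (SD, n = 5) of counts in RFPneg and 0.0143% ± 0.00983 in RFPpos, lower in RFPpos in 5 of 5 mice. By sample the share was 0.275, 0.299, 0.737, 0.446 and 0.247% in RFPneg 1 to 5, with the highest share in RFPneg3. That sample held the 6 counts of Tnf, while Cxcl2 was at 0 there and Il1b, at 19.2 CPM, was below RFPneg4 (32.2 CPM) and RFPneg5 (23.4 CPM). RFPneg3 was also the deepest library, with 415834 counts on genes. Of the 7 expressed neutrophil genes 6 and 2 of the 3 in the low-count fit were called lower. Over all genes, 11.6% were called lower in the expressed fit and 7.49% in the low-count fit. S100a8, the most abundant over the 10 samples, had 1952 ± 1148 CPM in RFPneg and 23.1 ± 23.3 CPM in RFPpos. In RFPpos the most abundant was Csf3r, with 84 of the list's 177 counts there, and it was not called (55.4 ± 28.5 CPM in RFPneg and 67.0 ± 24.1 CPM in RFPpos). In RFPpos, 3 of the 12 neutrophil markers were at 0 in all samples, among them the defining gene Ly6g, which had 9 counts in RFPneg.

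Monocyte markers took 0.0478% ± 0.0103 of counts in RFPneg and 0.00214% ± 0.00230 in RFPpos, 6 of the 10 were at 0 in RFPpos, and Fn1, the most abundant in both, had 298 ± 112 and 15.5 ± 20 CPM. For lymphocyte markers the shares were 0.0123% ± 0.00531 and 0.00124% ± 0.000994, with Nkg7 at 26.8 ± 16.2 CPM and 0 and 8 of the 12 at 0 in RFPpos. Endothelial markers, of which Flt1 was the most abundant over the 10 samples (1285 ± 493 and 32.9 ± 20.4 CPM) and Cldn5 in RFPpos (586 ± 225 and 56.7 ± 37.8 CPM), were called lower for all 10 expressed genes of 12 and took 0.575% ± 0.246 and 0.0256% ± 0.0103. Oligodendrocyte markers were called lower for all 9 expressed of 10 and took 1.06% ± 0.538 and 0.186% ± 0.101. Mural and fibroblast markers, of which Vtn was the most abundant over the 10 samples (119 ± 25.2 and 48.4 ± 26.2 CPM) and Rgs5 in RFPneg (152 ± 45.4 and 9.62 ± 8.77 CPM), were called lower for 3 of 4 expressed genes and took 0.0541% ± 0.0138 and 0.0120% ± 0.00894. Astrocyte markers, of which Slc1a2 was the most abundant over the 10 samples (1226 ± 194 and 789 ± 368 CPM) and Slc1a3 in RFPpos (774 ± 230 and 969 ± 423 CPM), were called lower for 2 of 8, Slc1a2 and Sox9, and took 0.453% ± 0.0803 and 0.396% ± 0.202. Border macrophage markers, led by Mrc1 (52.5 ± 12.9 and 79.5 ± 26.6 CPM), had 0 of 2 expressed genes of 9 called by edgeR, DESeq2 or limma, with 0 at an unadjusted p under 0.05, and took 0.0245% ± 0.00185 and 0.0256% ± 0.00742. Whether these other cells take part in the differences of the cytokine, chemokine, receptor and immediate early genes was not tested.

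**Figure D4:**
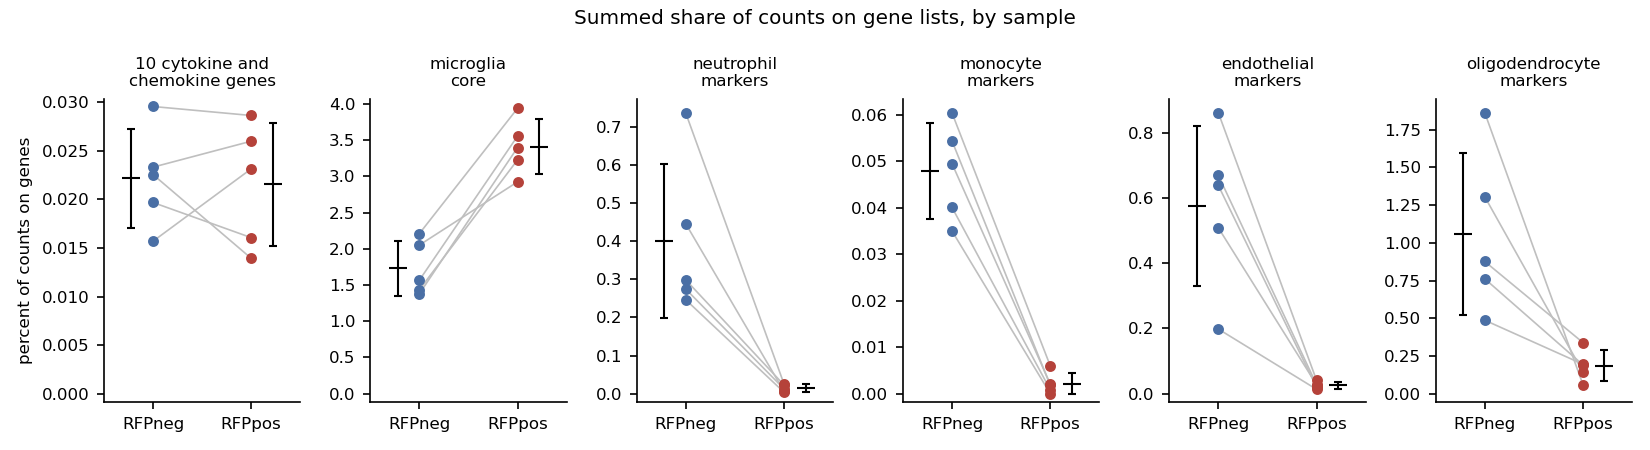
Percent of the counts on genes taken by the members and by 5 marker lists in the RFPneg (blue) and RFPpos (red) sample of each of 5 mice, with gray lines joining a mouse, and the mean and SD of 5 samples (bars end at 0). The microglia core is higher in RFPpos in 5 of 5 mice, the neutrophil, monocyte, endothelial and oligodendrocyte markers are lower in 5 of 5, and the members overlap.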

How the data were processed

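Bulk 3' RNA sequencing of RFPneg and RFPpos brain cells from 5 mice was analysed; the 2 single-cell samples were not analysed here. The deposited values are raw counts per gene, which the authors made with the Lexogen QuantSeq FWD UMI pipeline 2.3.1 on BlueBee 1.10.18. Aligner, annotation and build of the bulk data are not given in the sources used here; the submitters' processing notes name mm10 without an assay. Reads on no gene (32.1% to 37.2% in RFPneg, 38.4% to 48.6% in RFPpos) and ambiguous reads (0.295% to 0.436%) stayed out of library sizes. Symbols were found for 47224 of 47643 identifiers.

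Counts were fitted with edgeR 4.0.16 in R 4.3.3 (quasi-likelihood test, TMM scaling, mouse as block; limma 3.58.1 and DESeq2 1.42.0 as alternatives). The script was tested on simulated data, with changes placed only in genes of higher counts than the members. Detection of changes at the members' counts was thus not tested. SEs were derived from the F statistic. The block comes from the methods, since each mouse gave both populations. The deviations of a mouse's 2 samples from their group means correlated between -0.04 and 0.22 over expressed genes. The members and lists were chosen with earlier results of these data known. Named genes were the members, up to 3 expressed genes called in each direction per pathway list with the smallest p, the most abundant gene of a marker list, and 3 genes most similar to each expressed member. Outside this rule, Jak1, Zfp36l1, Ly6g, Csf3r, Cldn5, Rgs5, Slc1a3, Sox9, Aim2, Txnip, Tnfrsf1b, Il1r2, Cxcr1, Cxcr2 and Ackr2 were also chosen after their values were seen. Sequences were from RefSeq (GRCm38.p6) and GENCODE M21. Of the 10 members, 8 had a promoter entry. Motifs, length windows and 3' end comparisons were chosen after seeing the counts.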

Additional observations from a re-analysis of the deposited data

Results flagged for a closer look

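Levels of the 10 members and summed shares of 17 gene lists, the members' own included, were looked at in either population for a sample far from the other 4. Of 52 groups of 5 samples, without the groups at 0 throughout, 4 had one. Chance gives about 1 in 20 for values that vary in all samples, a rate that does not hold where 4 samples are at 0, since a single count is then enough. Tnf in RFPneg3 was at 14.4 CPM and in RFPpos1 at 4.49 CPM, while the other 4 samples of each population were at 0. Cxcl2 in RFPpos2 was at 6.90 CPM, with the other 4 at 0. These 3 rest on 6, 1 and 2 counts. Border macrophage markers took 0.0383% of counts in RFPpos2, against 0.0251% in the next sample. RFPpos2 also had the highest Ccl3 and Ccl4 levels of its population, 62.1 and 79.4 CPM; the part of that share in them was not tested.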

How the results depend on the processing

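Under other settings, 62 of 69 recomputed counts and summed values stayed within 1.5 times (counts) or 1 SD (summed share) of the reported value. Among the 62 are counts of members called that stayed at 0, which a fold threshold could not raise. Under each setting but the scaling to the microglia core, 0 members were called. That scaling called 4 members lower, 15 genes higher and 2778 lower, and moved the mean log2 ratio of the members' summed share to -1.06, by its own construction. It turned the sign of Il1a (-0.68), Il6 (-0.23), Ccl3 (-0.59), Ccl12 (-0.88), Il6st (-0.10), Tnfrsf1a (-0.15), Adam17 (-0.32), Pycard (-0.32) and Rel (-0.17). A fold threshold left 242 genes higher. With at least 10 counts, 919 genes were lower, and with no filter 834, since more genes were tested.

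Without the mouse block, 435 genes were higher and 482 lower, and 0 calls changed among the 7 tested members and 16 other named genes that were run. Ccl4, near 0 in the paired fit, changed sign without the block (0.061), with limma (0.10) and with no filter (0.026). With each mouse left out in turn it ranged from -0.39 to 0.26, and Ccl12 from -0.019 to 0.23; the cause was not tested. Library sizes with the reads on no gene, chosen after seeing the data, called 430 genes higher and 487 lower; the fold changes of the members stayed nearly as they were, so this does not test the part of those reads. Of 319 values of single genes, 270 kept sign and side of the threshold, 36 lost a call, 4 gained one and 15 turned sign, some of them with a change of call. Il6 had a value in 11 of 14 settings. Depth limits Tnf, Ccl2 and Cxcl2, which no fit but the unfiltered one could test.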
